A study of Mus musculus with 18 samples.

Results

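The genes described here encode the subunits and assembly factors of respiratory complex I, taken as every tested protein-coding gene whose symbol begins with *Nduf*. They were 47 of the 16272 genes tested, and of the 13561 that were protein-coding. By role they were 7 core subunits, 30 accessory subunits, 8 assembly factors named *Ndufaf*, and *Ndufa4* with its paralog *Ndufa4l2*, which carry the family name although the *Ndufa4* product is now placed with cytochrome c oxidase. RNA was sequenced from perigonadal white adipose tissue of female wild-type C57BL/6J mice, 6 libraries in each of 3 groups, and each library is labelled as its own mouse. Every mouse was a young adult housed alone with a running wheel. CON mice ate ad libitum. ABA mice (activity-based anorexia) had shortened feeding hours until a set share of body weight was lost, and WR mice (weight restored) went through ABA and then ate ad libitum until the weight was regained and held. A wheel was thus available in all groups, but the amount of running was not matched between them and was not analysed here. CON mice were matched with ABA mice by the time of sacrifice and WR mice were not. The authors' model does not include this yoking, so the calls of ABA against CON ignore it. In WR against CON, time and weight restoration cannot be told apart. In WR against ABA, the later time of sacrifice, the return to ad libitum feeding and the regained weight cannot be told apart either.

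Complex I, the NADH:ubiquinone oxidoreductase, is the entry point of the mitochondrial respiratory chain. It takes electrons from NADH in its N module, passes them along iron-sulfur clusters to ubiquinone in its Q module, and uses the energy to pump protons through its membrane arm. The catalytic core is made of nuclear and mitochondrial gene products, accessory subunits surround and stabilise it, and assembly factors build it but are absent from the finished enzyme. In white adipose tissue, mitochondria serve fatty acid oxidation and the making of lipid, and their content is far lower than in brown fat. The core subunits encoded by mitochondrial DNA were not analysed here.

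Values are the authors' own comparisons, given per gene as a log2 fold change with an adjusted p, and no values of single mice were used. A gene is called changed at an adjusted p under 0.05. WR against ABA holds all tested genes, whereas ABA against CON and WR against CON hold only called genes. Each comparison shares its 6 libraries of a group with the others, so they are not independent of each other. In WR against ABA, 20.9% of all tested genes were lower in WR and 25.0% higher. In ABA against CON, 20.9% were higher in ABA and 25.4% lower, and in WR against CON 4.04% were higher in WR and 3.18% lower. *Lep*, the leptin gene, was lower in ABA than in CON (log2 fold change -6.48) and higher in WR than in ABA (6.59). Adipocyte markers were abundant (12 of 12 tested, average log2 CPM 5.99 to 12.8). Because the tissue was sequenced whole, fewer cells of a type and less RNA per cell cannot be told apart.

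The promoter sequences of the members were searched for the letters of 4 motifs of factors known to act on nuclear genes of mitochondrial proteins. RefSeq promoters (GRCm38.p6, 300 bases, from 250 before to 50 after the start) were matched for 41 of the 47 members, with 43 promoters. The palindrome CGCATGCG, the core of the site of nuclear respiratory factor 1 (NRF1), was in 4 of the 43 (*Ndufa8*, *Ndufa11*, *Ndufaf4* and *Ndufaf5*), a share of 9.30%, against 2.52% of 21262 promoters of protein-coding genes and 1.87% of all 32851. AAGATGGC, a form of the YY1 site, was in 8 (18.6%, against 3.05% and 2.75%), namely those of *Ndufa3*, *Ndufa9*, *Ndufaf8*, *Ndufb8*, *Ndufc1*, *Ndufs4*, *Ndufs6* and *Ndufs7*. Its letters also hold an ATG, and matches were not split by whether they cover a translation start. AAGGTCA, bound by estrogen-related receptors, was in 3 (*Ndufb2*, *Ndufb4* and *Ndufs5*, 6.98% against 4.08% and 4.72%). The ETS site CCGGAAGT was in 1 (*Ndufs3*, 2.33% against 5.15% and 3.89%). Both strands were read, and the motifs do not contain each other. Matches were counted over all 300 bases, so they need not lie before the start. Among the matches to the NRF1 and estrogen-related receptor letters, 3 were not in the bases read before the start. These were *Ndufaf5* (250 bases read), *Ndufa8* (182) and *Ndufb4* (165). A match is a description of the sequence and was not related to binding. The promoters of *Ndufaf4* and *Ndufa11* are shown because they hold the palindrome in the same window from genes that differed in size of change. *Ndufaf4* had the largest fall of all members, and *Ndufa11* one of the smallest among the members called lower in WR than in ABA. Both lie on the plus strand, and capitals mark the palindrome, 112 to 105 bases before the start in *Ndufaf4* and 59 to 52 bases before it in *Ndufa11*.
Ndufaf4, chr4:24897833-24898082: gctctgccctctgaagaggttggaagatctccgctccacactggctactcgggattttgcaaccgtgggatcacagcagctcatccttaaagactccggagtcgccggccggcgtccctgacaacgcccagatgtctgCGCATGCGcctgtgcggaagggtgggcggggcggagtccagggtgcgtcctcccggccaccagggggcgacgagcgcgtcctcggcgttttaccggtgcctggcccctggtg
Ndufa11, chr17:56717512-56717761: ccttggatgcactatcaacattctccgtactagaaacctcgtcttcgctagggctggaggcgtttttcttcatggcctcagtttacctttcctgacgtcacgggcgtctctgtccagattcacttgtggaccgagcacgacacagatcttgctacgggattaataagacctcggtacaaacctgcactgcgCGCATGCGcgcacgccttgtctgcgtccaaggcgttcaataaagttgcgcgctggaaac

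Most subunit genes were lower in WR than in ABA and most assembly factor genes did not pass the test. Of the 47 members, 31 fell, 1 rose and 15 were not called, and the median log2 fold change of WR minus ABA was -0.54, against 0.01 over all tested genes. The 31 genes that fell were 1.31- to 2.27-fold higher in ABA than in WR (median 1.58-fold). At an average log2 CPM of 4 or more, where 39 of the members lie, 27.0% of protein-coding genes fell from ABA to WR, and 31 of those 39 members were.

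**Figure D1:**
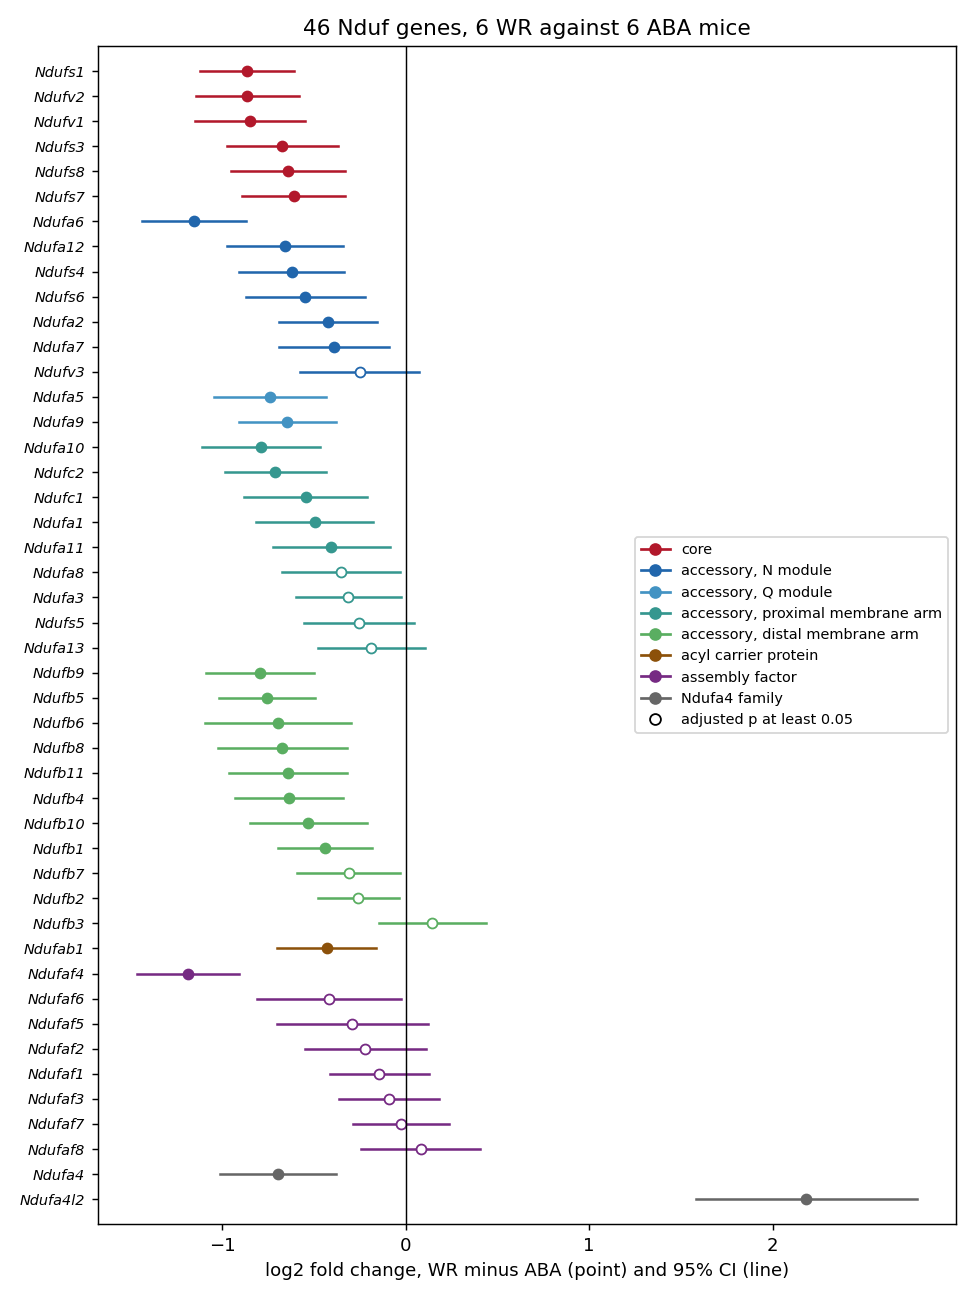
Log2 fold change of WR minus ABA (x axis) for 46 of the 47 genes (y axis), grouped by role, from 6 WR and 6 ABA libraries. Points are the authors' estimates, lines their 95% confidence intervals, and open points genes with an adjusted p of at least 0.05. The 6 core subunits plotted lie between -0.86 and -0.61, 7 of the 8 assembly factors are open, and *Ndufa4l2* stands alone at 2.18.

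The 7 nuclear core subunits all fell, with a median log2 fold change of -0.85. *Ndufs1*, the large subunit that carries iron-sulfur clusters of the N module, stood at -0.86 (SE 0.12, limma adjusted p = 1.93e-05). *Ndufv1*, which binds NADH and the flavin, and its partner *Ndufv2* were at -0.85 and -0.86 (SE 0.14 and 0.13). So the N module core genes fell by nearly the same amount, less than their SEs apart. The core genes of the Q module described here had smaller estimates. *Ndufs3* was at -0.67 (SE 0.14), *Ndufs8* at -0.64 (SE 0.15) and *Ndufs7*, which holds the last iron-sulfur cluster before ubiquinone, at -0.61 (SE 0.13). Their 95% confidence intervals overlapped those of the N module genes.

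The accessory subunits fell in 22 of 30 cases, with a median of -0.54. In the N module 6 of 7 fell. *Ndufa6*, a member of the LYR protein family that docks the acyl carrier protein, had the largest fall of any subunit, -1.15 (SE 0.13, adjusted p = 3.37e-06), and was 2.22-fold higher in ABA than in WR. It lies on chromosome 15 from 82350140 to 82354322 (ENSMUSG00000022450) and overlaps no other annotated gene. *Ndufa12* (-0.66), *Ndufs4* (-0.62), the zinc-binding *Ndufs6* (-0.55), *Ndufa2* (-0.42) and *Ndufa7* (-0.39) also fell, and *Ndufv3* did not pass the test (-0.25, adjusted p = 0.193). Both Q module accessory genes fell, *Ndufa5* at -0.74 (SE 0.15) and *Ndufa9*, of a reductase family, at -0.64 (SE 0.13). *Ndufab1*, the mitochondrial acyl carrier protein that also serves lipoic acid synthesis, fell less, at -0.43 (SE 0.13, adjusted p = 0.0108).

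In the membrane arm the calls were mixed. Of the 9 accessory subunits of its proximal part, 5 fell, led by *Ndufa10* at -0.79 (SE 0.15) and *Ndufc2* at -0.71 (SE 0.13), followed by *Ndufc1* (-0.54), *Ndufa1* (-0.50) and *Ndufa11* (-0.40, adjusted p = 0.0364). *Ndufa13*, *Ndufa3*, *Ndufa8* and *Ndufs5* were not called. In the distal part 8 of 11 fell. *Ndufb9*, another LYR protein, was at -0.80 (SE 0.14, adjusted p = 0.000178) and *Ndufb5* at -0.75 (SE 0.12, adjusted p = 9.66e-05), with *Ndufb6* (-0.69), *Ndufb8* (-0.67), *Ndufb11* (-0.64), *Ndufb4* (-0.64), *Ndufb10* (-0.53) and *Ndufb1* (-0.44) behind them. *Ndufb2* (-0.26, adjusted p = 0.0514), *Ndufb7* (-0.31) and *Ndufb3* (0.15) were not called. *Ndufb3* was the sole subunit with an estimate above 0, and its 95% confidence interval ran from -0.15 to 0.44. Over the 8 subunits not called, estimates ran from -0.35 to 0.15 and the lower ends of their intervals from -0.67 to -0.15, so falls of that size were not excluded.

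Of the 8 *Ndufaf* assembly factors, 1 fell (12.5%, near the 20.9% of all tested genes that were lower in WR), and their median was -0.18. That gene was *Ndufaf4*, an assembly factor of the Q module, which had the largest fall of all 47 members, -1.19 (SE 0.13, adjusted p = 2.44e-06), and was 2.27-fold higher in ABA than in WR. *Ndufaf4* (ENSMUSG00000028261) lies on chromosome 4 from 24898083 to 24905001, downstream of the sequence given above. *Ndufaf3*, whose product works in a complex with that of *Ndufaf4*, was at -0.09 (SE 0.13, adjusted p = 0.604). The interval of *Ndufaf3*, -0.36 to 0.18, did not reach that of *Ndufaf4*, -1.47 to -0.90. *Ndufaf1*, of the membrane arm assembly complex, was at -0.14 (SE 0.13), and *Ndufaf2*, an assembly paralog of *Ndufa12*, at -0.22 (SE 0.16). *Ndufaf5*, a hydroxylase acting on the *Ndufs7* protein, and *Ndufaf8*, which stabilises the *Ndufaf5* protein, were at -0.29 (SE 0.20) and 0.08 (SE 0.15). *Ndufaf6* was at -0.42 (SE 0.19, adjusted p = 0.0775) and *Ndufaf7*, a methyltransferase of the Q module, at -0.02 (SE 0.12).

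The precision of the assembly factors was near that of the subunits, with SEs of 0.125 to 0.196 against 0.104 to 0.190, but their read levels were lower. Their average log2 CPM was 1.31 to 4.13, against 4.23 or more in the subunits, so the ranges did not overlap. This is a level of reads per gene and not per length. Among protein-coding genes with an average log2 CPM of 1 to 4.2, 16.9% were lower in WR than in ABA. Across the 45 genes other than *Ndufa4* and *Ndufa4l2*, the average level and the log2 fold change of WR minus ABA had a Pearson's r of -0.51 and a Spearman's rho of -0.54, and across the 37 subunits alone -0.45 and -0.46. These describe genes that share the same 12 libraries and are not replicates. The part of read level in the contrast between subunits and assembly factors was not tested.

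**Figure D2:**
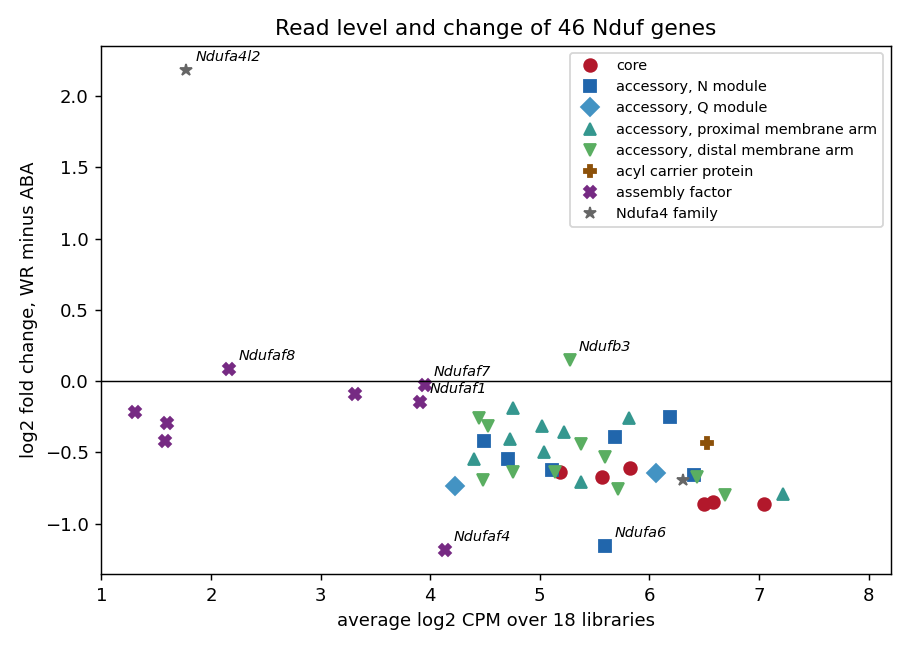
Average log2 CPM over the 18 libraries (x axis) against the log2 fold change of WR minus ABA (y axis). Each symbol is 1 of 46 of the 47 genes, shaped and coloured by role. The assembly factors lie at 4.13 or below and the subunits at 4.23 or above, and *Ndufaf4* lies at -1.19 beside subunits of like level that fell less.

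Assembly factors of complex I with other names gave a mixed result at higher read levels. Of 14 listed genes 13 were tested, 4 fell from ABA to WR, 1 rose and 8 were not called, with a median of -0.11. Those that fell were *Aifm1*, a flavoprotein of protein import (-0.58), *Dmac2* (-0.55), *Ecsit* of the membrane arm assembly complex (-0.54) and *Foxred1* (-0.43). *Acad9*, a partner of *Ecsit* related to fatty acid dehydrogenases, rose by 0.41 (SE 0.13, adjusted p = 0.0184) and was lower in ABA than in CON (-0.62). *Dmac1* was also lower in ABA than in CON (-0.27), and *Dmac2* (0.51) and *Aifm1* (0.30) were higher. *Ecsit* was lower in WR than in CON (-0.54, SE 0.15, limma adjusted p = 0.0345). Among the 9 of these at an average log2 CPM of 4 or more, 3 fell (33.3%) and 1 rose (11.1%). Of all protein-coding genes at that level, 27.0% fell and 28.4% rose, so the share that fell was near that of other genes.

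In ABA against CON, 20 members were higher and 2 were lower, beside 20.9% and 25.4% of all tested genes. The 20 were 6 of the 7 core subunits, 12 of the 30 accessory subunits, *Ndufaf4* and *Ndufa4*. With the Benjamini-Yekutieli adjustment 7 were higher and at an adjusted p under 0.01 12 were, so the count depended on the threshold. The 18 subunits were 1.29- to 1.99-fold higher (median 1.41-fold), with SEs of 0.12 to 0.17 on the log2 scale. *Ndufa6* again led, at 0.99 on the log2 scale (95% confidence interval 0.72 to 1.27, adjusted p = 1.34e-05). *Ndufaf4* was 1.52-fold higher in ABA than in CON (0.61, SE 0.12, adjusted p = 0.000552).

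A further 16 subunits were 0.58 or less above CON on the log2 scale. In the N module these were *Ndufs1* (0.55, adjusted p = 0.00143), *Ndufv1* (0.53, adjusted p = 0.00535), *Ndufv2* (0.49, adjusted p = 0.00644), *Ndufa12* (0.51, adjusted p = 0.00997) and *Ndufs4* (0.47, adjusted p = 0.00847). Q module genes were *Ndufa5* (0.56, adjusted p = 0.00304), *Ndufs3* (0.42, adjusted p = 0.0202), *Ndufa9* (0.39, adjusted p = 0.017) and *Ndufs7* (0.36, adjusted p = 0.031). The membrane arm gave *Ndufc2* (0.58, adjusted p = 0.00139), *Ndufa10* (0.52, adjusted p = 0.0105), *Ndufb9* (0.49, adjusted p = 0.00855), *Ndufb5* (0.47, adjusted p = 0.00478), *Ndufa1* (0.45, adjusted p = 0.0196), *Ndufb8* (0.45, adjusted p = 0.0366) and *Ndufb4* (0.43, adjusted p = 0.0137). Every module thus had called members, by the limma adjusted p of the deposited table.

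Against CON, 0 of the 37 subunits were called in WR by the authors' limma fit, and 3 other members were, beside 4.04% of all tested genes higher and 3.18% lower. How many subunits had an unadjusted p under 0.05 there could not be counted, since that table lists only called genes. *Ndufaf4* was lower in WR than in CON (-0.58 on the log2 scale, SE 0.14, adjusted p = 0.0201). *Ndufaf8* was lower in WR by 0.48 (SE 0.14, adjusted p = 0.0471) and had been lower in ABA by 0.56 (SE 0.14, adjusted p = 0.00339). *Ndufaf8* thus lay below CON in both states, with 0.08 between WR and ABA. It lies on chromosome 11 from 120098928 to 120100705 (ENSMUSG00000078572). *Ndufa4l2* was higher, and is described below. At an adjusted p under 0.01, or with the Benjamini-Yekutieli adjustment, none of these 3 calls was kept.

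For the 18 subunits that were higher in ABA, WR minus CON was derived as the sum of the other comparisons. The 18 derived estimates were all below 0, from -0.37 to -0.04 (median -0.25). The 95% confidence interval lay below 0 in 6 of them. Among these, *Ndufv2* was at -0.37 (-0.65 to -0.09) and *Ndufs1* at -0.32 (-0.57 to -0.06). *Ndufv1* (-0.31), *Ndufb9* (-0.30) and *Ndufb5* (-0.29) followed, with upper limits of -0.02, -0.01 and -0.03. In 12 subunits the interval held 0, as for *Ndufa6* at -0.16 (-0.44 to 0.12). These intervals are not adjusted for the number of genes and their SE was estimated from the other comparisons. With the SE at its lower or higher estimate, 11 or 4 intervals lay below 0 when *Ndufa4* is counted too, against 7. The same counts were not made for other genes higher in ABA. Whether derived estimates or intervals below 0 are particular to complex I was thus not tested.

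**Figure D3:**
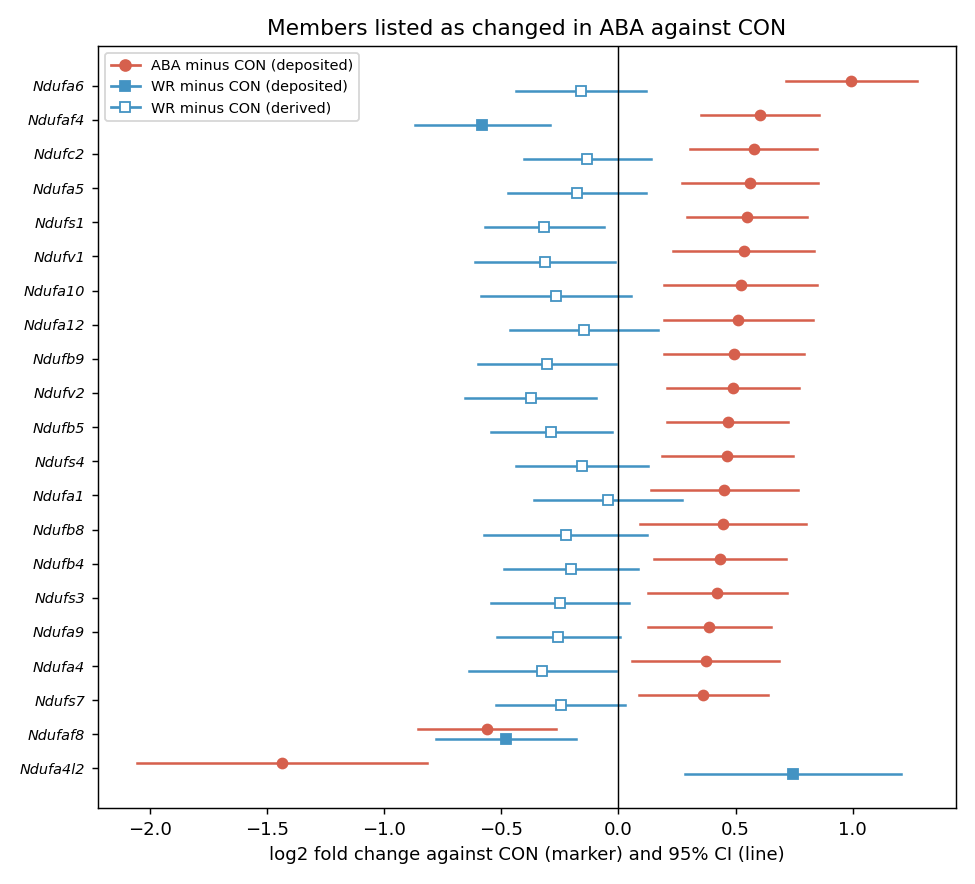
Log2 fold change against CON (x axis) of 21 of the 22 members listed in ABA against CON (y axis). Circles are ABA minus CON, filled squares WR minus CON as deposited, open squares WR minus CON derived from the other comparisons, and lines 95% confidence intervals. Subunits lie above 0 in ABA and at -0.04 or below in WR, *Ndufaf4* and *Ndufa4l2* are called on opposite sides of CON, and *Ndufaf8* is below 0 in both.

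Of the 37 subunits, 11 fell from ABA to WR but were listed in neither comparison with CON (*Ndufs8*, *Ndufa2*, *Ndufa7*, *Ndufa11*, *Ndufab1*, *Ndufb1*, *Ndufb6*, *Ndufb10*, *Ndufb11*, *Ndufc1* and *Ndufs6*). A gene is left out of ABA against CON when its moderated t is under 2.48 in size, which bounds its estimate once the SE is taken at the high end of that seen in other genes. On that basis ABA minus CON of these genes was at most 0.32 to 0.49, and it had to be above 0 in 3 (*Ndufb11*, *Ndufb6* and *Ndufs8*). On the same basis WR minus CON was below 0 in all 11, with upper limits of -0.26 to -0.01. The genes were picked for being lower in WR than in ABA and for not being listed in ABA against CON. Together with the limit on the SE, these conditions nearly fix the sign of WR minus CON. The count of 11 is thus not a result about these genes. A gene with a larger SE than assumed could lie outside the bounds, and none of these differences from CON was called.

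*Ndufa4* and *Ndufa4l2* moved in opposite directions. *Ndufa4*, of the cytochrome c oxidase group, was 1.29-fold higher in ABA than in CON (0.37, SE 0.15, adjusted p = 0.0496), fell from ABA to WR by 0.70 (SE 0.15, adjusted p = 0.000983), and had a derived WR minus CON of -0.32 (-0.64 to -0.01). *Ndufa4l2*, a paralog induced by hypoxia in other settings and reported in mouse pericytes, was 2.70-fold below CON in ABA (-1.44, SE 0.30, adjusted p = 0.000739). It was 4.54-fold higher in WR than in ABA (2.18, SE 0.29, adjusted p = 1.03e-05) and 1.68-fold higher in WR than in CON (0.75, SE 0.22, adjusted p = 0.0466). It was the sole member that rose from ABA to WR. Its read level was low (average log2 CPM 1.78). *Ndufa4l2* (ENSMUSG00000040280) lies on chromosome 10 from 127514967 to 127517154 and overlaps *Shmt2* on the other strand. *Shmt2*, a mitochondrial serine hydroxymethyltransferase with an average log2 CPM of 4.05, was also lower in ABA than in CON (-0.57) and rose from ABA to WR (0.38, SE 0.11). Of 6 smooth muscle and pericyte markers, 3 rose from ABA to WR, namely *Rgs5* (1.38), *Notch3* (2.0) and *Cspg4* (0.97), and *Rgs5* (1.0) and *Notch3* (0.72) were higher in WR than in CON. *Acta2*, *Tagln* and *Myh11* were not called from ABA to WR. In ABA against CON, 3 of the 6 were lower, namely *Acta2* (-1.57), *Notch3* (-1.28) and *Cspg4* (-0.78). The part of these cells or of *Shmt2* reads in the *Ndufa4l2* values was not tested.

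Genes of the other complexes of oxidative phosphorylation fell as well. From ABA to WR, 4 of 4 tested genes of complex II fell, 9 of 9 of complex III, 12 of 13 of complex IV and 16 of 17 of complex V, with a median of -0.74 over the 43. Examples are *Uqcrc2*, a core protein of complex III (-1.09), *Cox7b* of complex IV (-1.19), *Sdhb*, the iron-sulfur subunit of complex II (-0.89), and *Atp5a1*, the alpha subunit of ATP synthase (-0.81). In ABA against CON 27 of the 43 were higher and none lower. Against CON, 3 were lower in WR, all of ATP synthase, namely *Atp5a1* (-0.39), *Atp5g1* (-0.49) and *Atp5g3* (-0.49). A difference between these complexes and complex I was not tested.

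**Figure D4:**
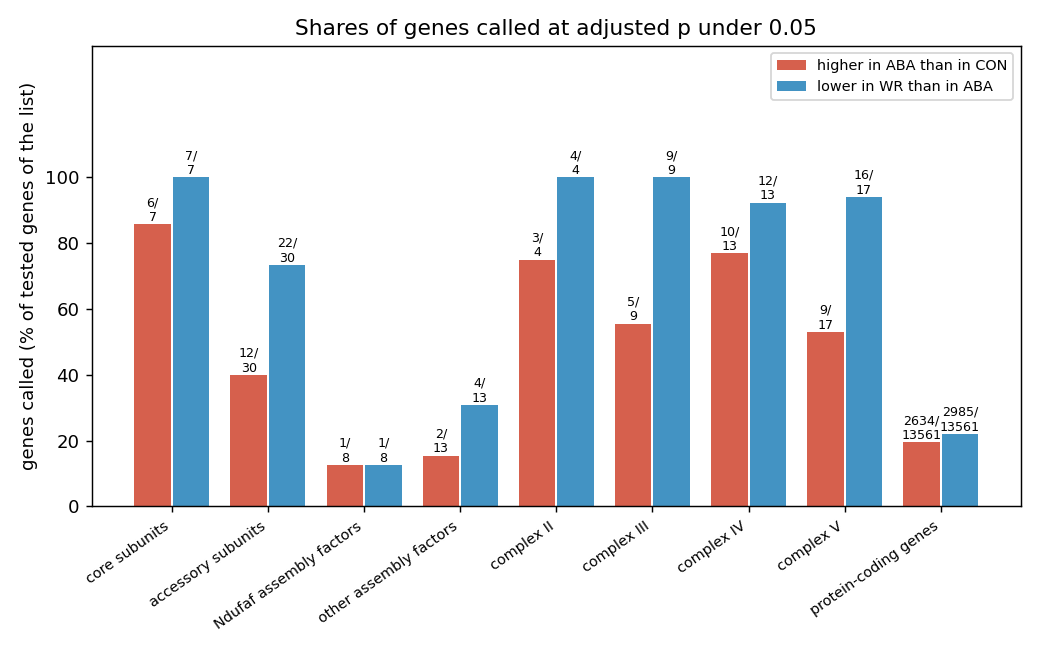
Share of the tested genes of each list (bars, y axis from 0, in percent) called higher in ABA than in CON and lower in WR than in ABA at an adjusted p under 0.05, with the called and tested numbers above each bar. The core subunits reach 7 of 7 lower in WR, accessory subunits 22 of 30 and *Ndufaf* assembly factors 1 of 8, beside 2985 of 13561 protein-coding genes.

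Of 15 listed regulators of nuclear genes for mitochondrial proteins 14 were tested, 7 fell from ABA to WR and 1 rose. *Ppargc1a*, a co-activator of mitochondrial biogenesis, fell by 2.18 (SE 0.36, adjusted p = 9.86e-05) and was higher in ABA than in CON by 2.13. *Esrra*, the estrogen-related receptor it acts with, fell by 0.80 (SE 0.12) and was higher in ABA by 0.55. *Tfb2m*, a mitochondrial transcription factor, fell by 1.06 (SE 0.09) and was higher in ABA by 0.93. *Ppargc1b* (-0.76), *Tfb1m* (-0.45), *Nfe2l2* (-0.40) and *Gabpa* (-0.21) also fell, and *Pprc1* rose (0.47). *Nrf1*, whose site letters stand in the promoters shown, was not called (-0.10, SE 0.10, adjusted p = 0.414), nor was *Yy1* (0.04, SE 0.05, adjusted p = 0.513). In ABA against CON 6 of the 14 were higher and 2 lower. *Yy1* was above CON in ABA (0.12, adjusted p = 0.0375), as were *Tfb1m* (0.29) and *Gabpa* (0.29), while *Pprc1* (-0.89) and the hypoxia factor gene *Hif1a* (-0.68) were below it. In WR against CON *Yy1* was higher (0.16, adjusted p = 0.0431) and *Tfam*, which packages mitochondrial DNA, was lower (-0.28, adjusted p = 0.0238).

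Markers of other cells moved in the same comparison. From ABA to WR, 7 of 8 macrophage markers, 4 of 6 endothelial, 3 of 6 mesothelial and 5 of 8 fibroblast markers rose, 2 fibroblast markers fell, and adipocyte markers went both ways (4 rose and 3 fell of 12). Of 7 brown or beige adipocyte markers, 4 fell, namely *Elovl3* (-4.43), *Cidea* (-3.27), *Ppargc1a* (-2.18) and *Cox8b* (-1.56), of which *Ppargc1a* is also among the regulators and *Cox8b* among the genes of complex IV. *Ucp1*, the defining brown fat uncoupling protein, was at -2.39 with an SE of 2.10 and was not called. None of the 5 skeletal muscle markers or of the 4 lymphocyte markers tested was called, and 1 of 3 ovary and oviduct markers tested fell. In ABA against CON, where subunits were higher, 3 of the 7 brown or beige markers were higher and 4 were not called. The 3 were *Elovl3* (3.11), *Ppargc1a* (2.13) and *Cidea* (2.11). In that comparison 5 of 8 macrophage, 5 of 8 fibroblast, 3 of 6 mesothelial, 1 of 6 endothelial and 4 of 12 adipocyte markers were lower, with 2 fibroblast and 2 adipocyte markers higher. The part of these cell types in the complex I values was not tested.

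Some member reads could also belong to neighbours, since the strand setting of the counting is not given in the sources used here. In the annotation, 6 members overlap a gene on the same strand and 19 a gene on the opposite one. *Ndufb1* is protein-coding by the authors' gene type, but this annotation types it as a long non-coding RNA of a bidirectional promoter. It overlaps *Cpsf2* on the other strand, and it is counted among the accessory subunits that fell. *Ndufb5* overlaps *Mrpl47*, a mitochondrial ribosomal protein gene that also fell (-0.81). *Ndufb4* has a close copy, *Ndufb4c*, listed outside the protein-coding genes at an average log2 CPM of 5.45 against 4.76, with a change of -0.34 (adjusted p = 0.0548), so how reads were divided between them is uncertain.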

How the data were processed

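RNA was sequenced from 18 libraries, 6 per group. Per the methods and the submitters' processing notes, read quality (FastQC 0.11.8), trimming (Trimmomatic 0.38), alignment to GRCm38.p6 (STAR 2.5.1a) and gene quantification (RSEM 1.3.0) were followed by a filter (1 CPM or more in 5 or more samples). TMM factors came from edgeR, and the authors' limma-voom model had condition as its sole term. The deposited tables hold, per gene, the log2 fold change and average log2 CPM, a moderated t score from the authors' fit, and its p-value, adjusted by Benjamini-Hochberg over 16272 genes. These columns of the authors' comparisons were used because no per-sample values were, so the depth of each library is unknown and p-values rest on the authors' fit.

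Signs were fixed by the identity of the 3 comparisons (largest difference 1.02e-14 over 602 genes) and by *Lep*. SE was the log2 fold change divided by t, and 95% confidence intervals had 18.4 degrees of freedom, solved from pairs of t and p. WR minus CON of unlisted genes was ABA minus CON plus WR minus ABA. Its SE was 0.993 times the root mean square of the other SEs (0.717 to 1.07 in the central 95% of 525 genes). Bounds for genes listed against neither control used SE ratios of 1.04 and 1.08 and limits on t of 2.48 and 3.33. The computations were tested on simulated data. Scripts used Python 3.11.15 with pandas 2.3.3 and scipy 1.17.1. Positions are from GENCODE M21, and promoters from RefSeq.

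All members enter the counts, and 1 is not reported by name. Apart from that gene, estimates were given for members called against CON, those with the 10 smallest adjusted p in WR against ABA and those moving against most members. Their SEs and adjusted p were given only in part. Members, lists and motif letters were chosen with earlier results of these data known. Alternatives were an adjusted p under 0.01, the Benjamini-Yekutieli adjustment, a log2 fold change of 0.5 or more in size, adjustment over protein-coding genes or over genes at an average log2 CPM of 0 or more, members without the *Ndufa4* family, centring on the median of all genes, members at an average of 4 or more, and other SEs of derived values. The other 2 sheets repeat these values and were not used.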

Additional observations from a re-analysis of the deposited data

Results flagged for a closer look

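*Ndufaf4* and *Ndufa4l2* stand out because ABA and WR were called on opposite sides of CON, and the difference between the states was itself tested in WR against ABA. *Ndufaf4* was above CON in ABA and below it in WR, with WR minus ABA at -1.19 on the log2 scale. *Ndufa4l2* was below CON in ABA and above it in WR, with WR minus ABA at 2.18. *Ndufa12-ps*, a processed pseudogene outside the protein-coding genes, was higher in ABA than in CON by 0.73 and lower in WR than in ABA by 0.84, beside 0.51 and a fall of 0.66 for *Ndufa12*.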

How the results depend on the processing

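The fall of members from ABA to WR stayed in the count of 31 within 21 to 32 over the 6 alternatives for counts, with a median of -0.54 as deposited, -0.55 after centring and -0.64 among members at an average log2 CPM of 4 or more. Of the 32 members called in WR against ABA, 22 held with the Benjamini-Yekutieli adjustment and 27 at an adjusted p under 0.01. *Ndufb2* was called as well when protein-coding genes alone were adjusted. Members higher in ABA than in CON numbered 20, but 12 at an adjusted p under 0.01, 7 with the Benjamini-Yekutieli adjustment and 9 with a log2 fold change of 0.5 or more in size. In WR against CON, the 1 higher and 2 lower members became 0 and 0 both at an adjusted p under 0.01 and with Benjamini-Yekutieli, and 1 lower remained with a log2 fold change of at least 0.5. Without the *Ndufa4* family, 0 members rose from ABA to WR, 1 was lower in ABA and 0 were higher in WR than in CON. Derived WR minus CON intervals below 0 numbered 7, and 11 or 4 with the SE at its low or high percentile. Counts against CON adjusted over part of the genes are lower bounds, since p-values of unlisted genes were not used. No paired analysis was possible because the groups share no replicate numbers and no per-sample values were used, although each CON mouse was yoked to an ABA mouse in the experiment. Leaving out single libraries was not run for the latter reason.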
